A study of Mus musculus with 6 samples.

Results

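The genes described here encode the glycosyltransferases that build and cap the sugar chains of mucins, surface glycoproteins and glycolipids, and they were compared between small intestinal tumours and control small intestine of mice. Members were chosen by symbol alone, as genes whose name begins with Galnt, Gcnt, B3gnt, B3galt, B4galt, B4galnt, Fut, St3gal, St6gal, St6galnac or St8sia followed by a digit. The rule found 78 of the 23393 named genes in the table, in 11 classes. B3galtl carries a matching prefix without a digit and was left out. Of the 78 members, 60 had at least 10 counts in 3 or more libraries and were tested. None of the 60 reached that minimum in 1 group only. The other 18 stayed below it, and 4 of them (Fut4-ps1, Galnt14, Galntl5 and Gcnt7) had no count in any library.

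The DKO tumours (n = 3) were tumours of the small intestine of mice positive for a Villin promoter-driven Cre, with floxed alleles of PKClambda and PKCzeta, so that Cre acts on the genes of both atypical kinases in the intestinal epithelium. The WT intestine samples (n = 3) were small intestine of Cre-negative mice that carried the same floxed alleles. All mice were C57BL/6 and 12 weeks old. Tumour tissue and genotype changed together and cannot be told apart, and the stretch of intestine taken is not stated. Each sample is labelled as tissue of a mouse, without an animal number.

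O-linked mucin chains start when a polypeptide GalNAc-transferase places GalNAc on serine or threonine, and they are then extended by galactose and GlcNAc, branched, and capped with fucose or sialic acid. The same galactosyl-, fucosyl- and sialyltransferases also finish N-linked chains and glycolipids. In the small intestine these caps form the blood group-type and sialylated surface of goblet cell mucus and of the brush border, which bacteria and lectins bind.

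Library totals lay between 12491561 and 15105393 counts in DKO tumours and between 12785595 and 15799269 counts in WT intestine, and members held 0.477% to 0.528% of the counts in tumours and 0.606% to 0.652% in WT intestine. Levels are in CPM, a gene's count scaled to a common library size with TMM factors. Prkcz, which encodes PKCzeta, averaged 16.8 ± 2.33 CPM in tumours and 66.8 ± 5.25 CPM in WT intestine (SD, n = 3 each; edgeR adjusted p = 0.000233). Prkci, which encodes PKClambda, averaged 93.8 ± 12 CPM in tumours and 70.5 ± 15 CPM in WT intestine (edgeR adjusted p = 0.134), so the count over its whole length did not show the deletion. Summed levels of 5 epithelial markers overlapped, at 7599 to 10799 CPM in tumours and 8694 to 10627 CPM in WT intestine. But Krt18 rose (log2 fold change 2.40), Vil1 fell (-1.07), and 4 of the 5 did not overlap between groups, against 48% of all genes. Sums of 8 goblet cell markers (4111 to 7205 CPM in tumours against 8961 to 10215 CPM in WT intestine, 5 fell), 8 enterocyte markers (22242 to 27844 in tumours against 40378 to 66951 CPM in WT intestine, 5 fell) and 5 Paneth cell markers (195.6 to 577.6 in tumours against 8740 to 12105 CPM in WT intestine, 5 fell) were lower in every tumour. Among the enterocyte markers, Alpi leaned the other way without a call (log2 fold change 0.97, edgeR adjusted p = 0.145). Apoa4 overlapped between groups (-0.18, edgeR adjusted p = 0.591). Fibroblast markers (847.4 to 1239.9 in tumours against 270.5 to 404.2 CPM in WT intestine, 5 of 6 rose) and endothelial markers (68.2 to 107.3 in tumours against 35.8 to 50.3 CPM in WT intestine, 3 of 4 rose) were higher in every tumour. Smooth muscle markers were lower in every tumour (360 to 544.7 CPM in tumours against 616.1 to 961.8 CPM in WT intestine, 4 of 5 fell). For these marker counts the background is all genes tested, of which 15.9% rose and 13.8% fell. Mucous gland markers summed to 402.3 CPM in tumour 1, at most 3.42 CPM in the other tumours and at most 0.195 CPM in WT intestine (3 genes), and B and plasma cell markers to 3475 CPM in tumour 1 and 1184 to 2102 CPM in the other 5 libraries. Duodenal markers summed to 3959, 68.5 and 904.8 CPM in tumours 1 to 3 and to 16.1 to 21.8 CPM in WT intestine, and ileal markers to 118.5 CPM in tumour 2 and at most 2.8 CPM elsewhere. Which stretch of gut each tumour came from was not tested. The 4 gastric surface markers summed to 12.6 to 61.5 CPM in tumours and at most 0.0649 CPM in WT intestine. Both that were tested, Tff1 and Gkn1, rose, but they reached the minimum count through the tumours alone, so no fall could be called. Muc5ac was at 0 in all libraries but tumour 3 (1 count). Fewer cells of a type and less RNA per cell cannot be told apart in whole tissue, and the part of these markers in the results below was not tested.

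In DKO tumours 11 of the 60 tested members rose and 7 fell, at a Benjamini-Hochberg adjusted p under 0.05 in the quasi-likelihood test of edgeR over all 13866 genes tested. The called members were 18 of 60, against 29.7% of all genes called. The rises were 18.3% of members against 15.9% of all genes, and the falls 11.7% against 13.8%. These shares lie near the background, and the median log2 fold change was 0.03 over members and 0.02 over all genes. When libraries were scaled by their totals in place of TMM (a shift of 0.257 in the log2 fold change of the median gene), 14 members rose and 3 fell, and 27.2% and 7.72% of all genes did so. Levels of the groups did not overlap in 27 of the 60 members, against 48% of all genes.

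The largest rises were in caps and branches, led by the sialyltransferases St8sia6 and St6galnac6, the fucosyltransferase Fut2 and the branching enzyme Gcnt1. The largest falls were in B4galt5, a galactosyltransferase of glycolipids, the sialyltransferase St3gal4 and B4galnt2, which makes the Sda-type GalNAc cap. In all, 7 rises and 3 falls reached a 2-fold difference, as did 8.87% (rises) and 7.1% (falls) of all genes tested.

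**Figure D1:**
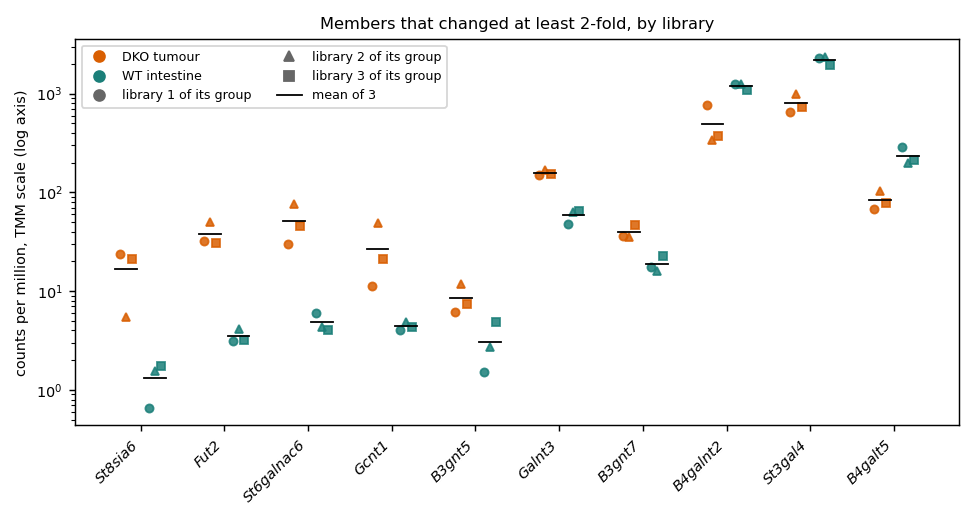
CPM on the TMM scale (log axis) in each library for the 10 members that changed at least 2-fold, with DKO tumours left of WT intestine for each gene and a bar at the mean of 3. The groups do not overlap in any of the 10 genes, which follows largely from picking them by call and fold change. Tumour 2 is the lowest tumour for St8sia6 (5.43 CPM) and the highest for Gcnt1 (48.5 CPM).

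The start regions of 4 of these members are shown because, among members called under every alternative run, they moved furthest in each direction and had 1 listed start clear of other genes. St8sia6 and Galnt3 rose, and St3gal4 and B4galt5 fell. Each window runs from 250 bases before to 50 bases after the start (RefSeq, GRCm38.p6, the build of mm10), on the minus strand in all 4, and capitals mark the GC box GGGCGG on either strand, where neighbouring or overlapping matches run together.
St8sia6, chr2:13793471-13793770: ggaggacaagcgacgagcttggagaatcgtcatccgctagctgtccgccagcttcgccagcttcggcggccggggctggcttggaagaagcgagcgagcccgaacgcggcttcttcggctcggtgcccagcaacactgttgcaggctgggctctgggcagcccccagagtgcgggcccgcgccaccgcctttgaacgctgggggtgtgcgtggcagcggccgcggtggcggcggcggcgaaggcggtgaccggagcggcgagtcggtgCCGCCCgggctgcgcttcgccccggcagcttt
Galnt3, chr2:66124744-66125043: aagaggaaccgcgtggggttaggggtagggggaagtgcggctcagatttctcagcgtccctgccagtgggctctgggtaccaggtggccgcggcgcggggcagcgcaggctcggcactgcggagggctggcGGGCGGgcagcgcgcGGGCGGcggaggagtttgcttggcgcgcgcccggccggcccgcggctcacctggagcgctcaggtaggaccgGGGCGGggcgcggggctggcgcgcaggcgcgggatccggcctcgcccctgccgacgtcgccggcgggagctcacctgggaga
St3gal4, chr9:35116815-35117114: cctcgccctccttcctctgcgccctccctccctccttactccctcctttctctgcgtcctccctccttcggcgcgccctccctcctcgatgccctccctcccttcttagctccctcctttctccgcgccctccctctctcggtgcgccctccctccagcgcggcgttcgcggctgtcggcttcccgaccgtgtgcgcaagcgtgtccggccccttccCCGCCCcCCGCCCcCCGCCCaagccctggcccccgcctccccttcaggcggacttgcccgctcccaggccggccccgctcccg
B4galt5, chr2:167349129-167349428: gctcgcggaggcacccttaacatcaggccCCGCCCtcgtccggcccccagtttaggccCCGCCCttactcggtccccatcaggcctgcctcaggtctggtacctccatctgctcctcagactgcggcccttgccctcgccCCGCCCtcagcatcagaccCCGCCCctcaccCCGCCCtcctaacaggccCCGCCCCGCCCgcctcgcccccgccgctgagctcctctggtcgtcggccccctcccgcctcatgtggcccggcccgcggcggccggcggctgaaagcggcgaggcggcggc

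Of the 78 members, 57 matched the promoter table, and 45 of these were tested. GC boxes were found in 6 of 8 members that rose, 4 of 4 that fell and 33 of 45 tested, against 38.2% of the 27025 genes in the table. That background holds genes whether tested or not, so the shares are not like for like. The St8sia6, Galnt3, St3gal4 and B4galt5 windows held 1, 3, 3 and 7 matches and had a GC content of 72% to 76.7%. None of the 4 held the other motifs, searched on both strands: the TATA box, spelled TATAAA, in 15.7% of all genes, the AP-1 motif, spelled TGANTCA, in 8.97%, the TEAD motif, spelled GGAATG, in 16.6%, or the CDX motif, spelled TTTATG, in 13.6%. Among the members that rose, Gcnt1 has 3 listed starts, and its windows held the TATA box, TEAD and CDX letters. The TEAD letters were also found for B3gnt5, which rose, and B4galnt2, which fell, and in 9 of 45 tested members in all. A match is a run of letters and not a bound site. The St6galnac6 window lies over the end of its neighbour St6galnac4 and is not shown.

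Among the polypeptide GalNAc-transferases, which start O-linked chains, 3 of 13 tested members rose and 10 did not pass (median log2 fold change -0.12). That was 23.1% called, against 29.7% of all genes. Galnt3, known for protecting the hormone FGF23 from cleavage, lies on chromosome 2 (66082766 to 66124994). It stood at 149.4, 168.1 and 154.1 CPM in DKO tumours and at 48.2, 62.9 and 64.9 CPM in WT intestine. Every tumour was above every WT library, and the log2 fold change was 1.42 (SE 0.152, edgeR adjusted p = 0.00077). Galnt2, a broadly expressed starter of chains, averaged 122.4 ± 18.6 CPM in tumours and 82.6 ± 4.36 CPM in WT intestine (log2 fold change 0.57, edgeR adjusted p = 0.024). Galnt12, an enzyme of human colon, averaged 53 ± 7.08 CPM in tumours and 37.1 ± 3.21 CPM in WT intestine (0.52, edgeR adjusted p = 0.0333). The calls for Galnt2 and Galnt12 each ended in 4 of the 6 refits without 1 library (edgeR adjusted p of up to 0.103 and 0.125). In GENCODE, 90.0% of the exon bases of Galnt2 are shared with a same-strand gene model, Gm20388, which is not among the rows of the table.

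Length-scaled levels (CPM per kb of exon, from GENCODE M21) gave overlapping class totals and separate Galnt3 shares. The class summed to 278.2 ± 9.97 CPM per kb in DKO tumours and 277.4 ± 3.37 CPM per kb in WT intestine (SD, n = 3 each). Galnt6 was the highest member in both groups, at 77.9 CPM per kb in tumours and 98.8 CPM per kb in WT intestine. It stood at 264.9, 334.4 and 305.9 CPM in tumours and at 436.6, 365.4 and 345.9 CPM in WT intestine, every tumour lower but not called (edgeR adjusted p = 0.157). The share of Galnt3 in the class was 12.4%, 13.3% and 13.1% in tumours and 4.03%, 5.14% and 5.33% in WT intestine. Galnt1 and Galnt10 were lower in every tumour than in every WT library without passing (log2 fold changes -0.39 and -0.37, edgeR adjusted p = 0.057 and 0.0539). With the DESeq2 test both passed (DESeq2 adjusted p = 0.00694 and 0.0254). Across all alternatives run, however, Galnt1 ranged from -0.42 to -0.14 (edgeR adjusted p of up to 0.483). Galnt10 ranged from -0.44 to -0.12 (edgeR adjusted p of up to 0.571). The log2 fold changes of the other 7 tested members lay between -0.84 (Galnt5) and 0.53 (Galnt15), with Galnt4, Galnt7, Galnt11, Galnt18 and Galntl6 in between.

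Chain branching is the work of the Gcnt enzymes, of which 1 of 4 tested rose and 3 did not pass (all genes: 15.9% rose). Gcnt1, the core 2 enzyme known from leukocytes (chromosome 19, 17326141 to 17372844), stood at 11.4, 48.5 and 21 CPM in DKO tumours and at 4.06, 4.87 and 4.35 CPM in WT intestine. The lowest tumour was more than any WT library, and the tumours themselves spread widely. Its log2 fold change was 2.60 (SE 0.499, edgeR adjusted p = 0.00779), and 1.87 without tumour 2. Gcnt3, the mucin-type enzyme of core 2, core 4 and I branches, was the highest of the class per length, at 47.2 CPM per kb in tumours and 27.8 CPM per kb in WT intestine. It stood at 182.3, 229.6 and 197.5 CPM in tumours and at 176.5, 87.8 and 94 CPM in WT intestine. WT library 1 lay close to the lowest tumour, and the log2 fold change of 0.77 did not pass (edgeR adjusted p = 0.0663). It was 1.15 without WT library 1 (edgeR adjusted p = 0.00366) and passed under library totals and DESeq2. Per length, Gcnt3 over Gcnt4 was 2.81, 2.87 and 2.81 in tumours and 2.41, 0.692 and 0.826 in WT intestine. Gcnt4, another core 2 enzyme, averaged 84.8 ± 8.96 CPM in tumours and 123.7 ± 33.2 CPM in WT intestine (edgeR adjusted p = 0.0847, and 0.00907 without WT library 1). Gcnt2, which forms I branches, averaged 62.7 ± 1.76 CPM in tumours and 58.1 ± 13 CPM in WT intestine (edgeR adjusted p = 0.653).

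Most B3gnt enzymes add GlcNAc to galactose and so extend chains. In this class 2 of 9 tested members rose while 7 did not pass (all genes: 15.9% rose). B3gnt7, which extends poly-lactosamine and keratan sulfate chains (chromosome 1, 86302832 to 86307305), stood at 35.9, 35.2 and 46.8 CPM in DKO tumours and at 17.5, 15.9 and 22.9 CPM in WT intestine. The groups did not overlap (log2 fold change 1.06, SE 0.19, edgeR adjusted p = 0.00591). B3gnt5, which starts lacto-series glycolipids (chromosome 16, 19760208 to 19772753), stood at 6.19, 11.9 and 7.40 CPM in tumours and at 1.51, 2.75 and 4.93 CPM in WT intestine. Every tumour was above every WT library, but the spread within WT intestine was wide (log2 fold change 1.44, SE 0.427, edgeR adjusted p = 0.0374). That call ended in 4 of the 6 refits without 1 library (edgeR adjusted p = 0.0698 to 0.122). B3gnt3, which extends core 1 chains, was the highest of the class per length, at 70.5 CPM per kb in tumours and 53.2 CPM per kb in WT intestine. Its counts stood at 194.1, 235.7 and 216.3 CPM in tumours and 189.3, 147.9 and 150.6 CPM in WT intestine (log2 fold change 0.41, edgeR adjusted p = 0.0848, 0.0281 without WT library 1 and 0.00812 under library totals).

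B3gnt6, the core 3 enzyme of colonic mucins, stood at 0.535, 2.61 and 0.888 CPM in DKO tumours and at 2.55, 3.06 and 2.72 CPM in WT intestine. Tumour 2 overlapped WT intestine, and the log2 fold change of -1.05 did not pass (edgeR adjusted p = 0.168), but it was -1.96 without tumour 2 (edgeR adjusted p = 0.0114). B3gnt1 in this table is the older symbol of B4gat1, a glucuronyltransferase of dystroglycan chains rather than an extension enzyme. B3gnt1, B3gnt2, B3gnt8, B3gnt9 and B3gntl1 had log2 fold changes between -0.08 and 0.44, with no call.

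Of the galactosyltransferases, 0 of 3 tested B3galt genes and 1 of 7 tested B4galt genes passed, against 29.7% of all genes. The 3 tested B3galt genes were B3galt4 and B3galt5, of ganglioside and type 1 chains, and B3galt6, of the proteoglycan linker. In edgeR 0 of the 3 had an unadjusted p under 0.05, and DESeq2 called 0. B3galt4 was the highest of the class, at 6.53 CPM per kb in both groups, and stood at 9.94, 9.25 and 11.8 CPM in tumours and at 10.9, 10.8 and 9.34 CPM in WT intestine. B3galt5 was spread in both groups, at 23.4, 6.24 and 8.51 CPM in tumours and 7.08, 16.5 and 21.1 CPM in WT intestine.

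B4galt5 and B4galt6 both make lactosylceramide, the stem of most glycolipids, and B4galt5 fell while B4galt6 did not pass. B4galt5 (chromosome 2, 167298444 to 167349183) stood at 68.7, 102.6 and 79 CPM in DKO tumours and at 291.2, 199.9 and 214.2 CPM in WT intestine. All tumours were below all WT libraries (log2 fold change -1.49, SE 0.211, edgeR adjusted p = 0.00232). B4galt6 stood at 258.8, 330.1 and 326 CPM in tumours and at 399.7, 290.9 and 284.2 CPM in WT intestine (log2 fold change -0.09, edgeR adjusted p = 0.746). It had the highest mean of the class in both groups, at 52.5 CPM per kb in tumours and 55.9 CPM per kb in WT intestine. B4galt1 was above B4galt6 in tumour 1 (34.1% of the class against 32.9%). Per length, the level of B4galt5 over that of B4galt6 was 0.358, 0.419 and 0.327 in tumours and 0.982, 0.926 and 1.02 in WT intestine. B4galt1, the main enzyme of lactosamine chains, averaged 213.4 ± 16 CPM in tumours and 195.7 ± 43.9 CPM in WT intestine (edgeR adjusted p = 0.634). The other 4, B4galt2, B4galt3, B4galt4 and B4galt7, had log2 fold changes of -0.31 to 0.69 without a call.

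The B4galnt enzymes put GalNAc on terminal chains, and 2 of 4 fell while 2 did not pass (all genes: 13.8% fell). B4galnt2, whose product in mouse gut epithelium binds Dolichos lectin (chromosome 11, 95865943 to 95914891), stood at 761.2, 340.7 and 371.8 CPM in DKO tumours and at 1265, 1238 and 1096 CPM in WT intestine. Tumour 1 was the highest tumour and still below every WT library. The log2 fold change was -1.29 (SE 0.318, edgeR adjusted p = 0.0201), and the call ended without tumour 2, tumour 3 or WT library 2 (edgeR adjusted p = 0.0527 to 0.0876). B4galnt2 was the highest of its class per length, at 285.3 CPM per kb in tumours and 696.9 CPM per kb in WT intestine. B4galnt1, which makes the gangliosides GM2 and GD2, averaged 191.7 ± 20.3 CPM in tumours and 309.6 ± 50.9 CPM in WT intestine (log2 fold change -0.69, edgeR adjusted p = 0.02), a call that ended without tumour 3 (0.0889) or WT library 2 (0.0507) and under library totals (0.0537). An opposite-strand gene, Slc26a10, covers 20.7% of its exon bases, and the strand setting of the counting is not known. B4galnt3 and B4galnt4, of LacdiNAc chains, had log2 fold changes of 0.05 and -0.16.

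**Figure D2:**
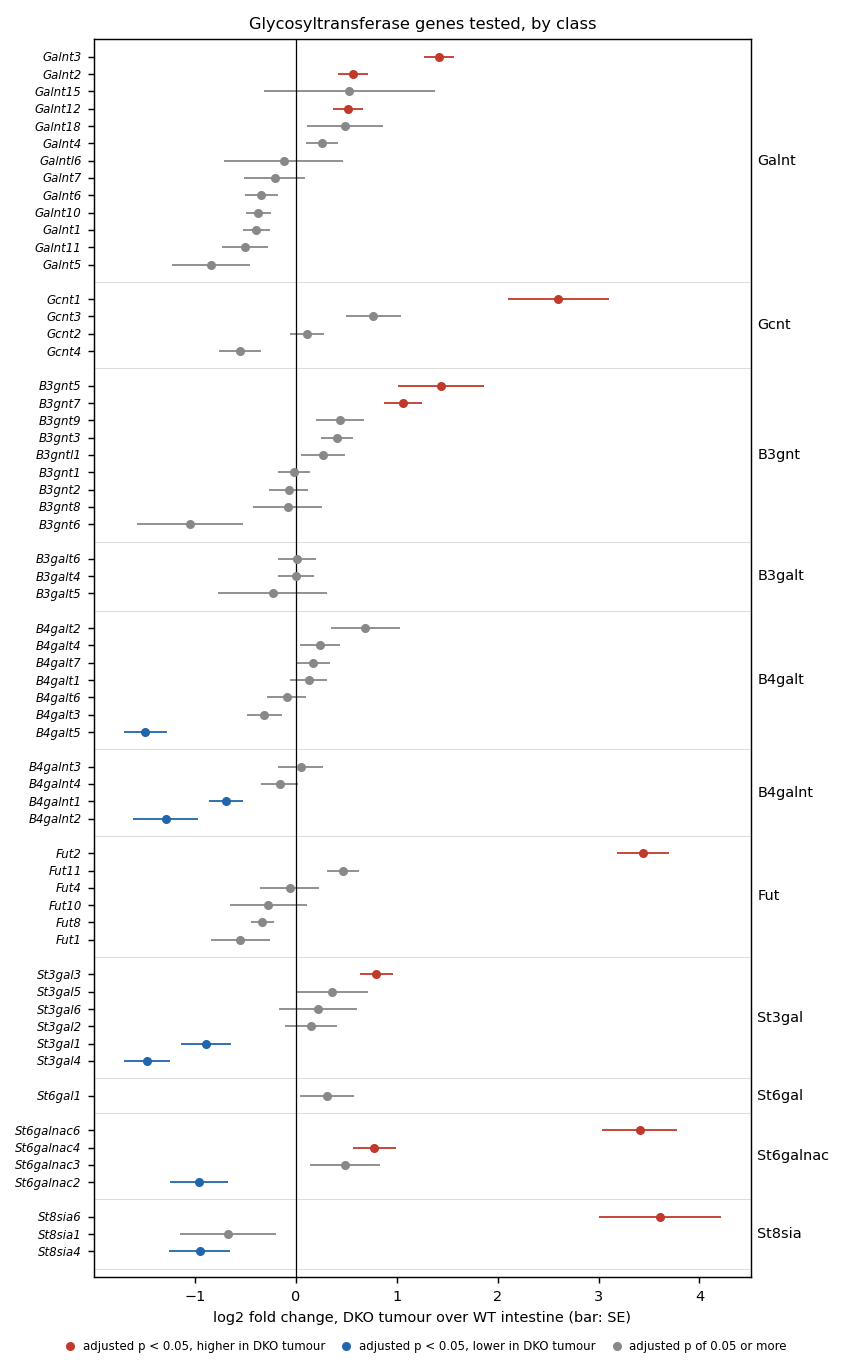
Log2 fold change of DKO tumour over WT intestine with its standard error for the 60 members tested, by class, red where higher and blue where lower at an edgeR adjusted p under 0.05. The values run from -1.49 (B4galt5) to 3.61 (St8sia6), and 42 members did not pass.

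Of the fucosyltransferases 1 of 6 tested rose and 5 did not pass (all genes: 15.9% rose). Fut2, the secretor enzyme that makes the H-type alpha-linked fucose cap of gut epithelium (chromosome 7, 45648591 to 45666394), stood at 32.5, 50.4 and 30.7 CPM in DKO tumours and at 3.11, 4.16 and 3.18 CPM in WT intestine. The groups were far apart, at 10.8-fold (log2 fold change 3.44, SE 0.255, edgeR adjusted p = 0.0002). It lay between 3.19 and 3.69 under every alternative run. Fut1, the related enzyme with the same product, stood at 1.13, 1.01 and 1.04 CPM in tumours and at 1.42, 1.41 and 1.82 CPM in WT intestine, with every tumour lower but no call (log2 fold change -0.55, edgeR adjusted p = 0.185). Per length, Fut2 over Fut1 was 14.7, 25.7 and 15.2 in tumours and 1.13, 1.51 and 0.898 in WT intestine. Sec1, a close relative of Fut2 with which reads could be shared, stood at 0.178, 0.134 and 0 CPM in tumours and at 0 CPM in WT intestine.

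The share of Fut2 in its class, per length, was 18.5%, 25.6% and 16.1% in DKO tumours and 1.58%, 2.60% and 2.10% in WT intestine. Fut8, which adds the core fucose of N-linked chains, had the highest mean of the class in both groups, at 12.1 CPM per kb in tumours and 15.2 CPM per kb in WT intestine. Fut4 was above Fut8 in tumour 3 (40% of the class against 32.2%) and WT library 1 (50% against 40.2%). Fut8 stood at 101, 97.4 and 89.3 CPM in tumours and at 116, 126 and 119 CPM in WT intestine, with every tumour lower but no call in edgeR (log2 fold change -0.33, edgeR adjusted p = 0.0704, and DESeq2 adjusted p = 0.0383). Across all alternatives run, its log2 fold change ranged from -0.36 to -0.07 (edgeR adjusted p of up to 0.716). Fut4, an alpha1,3-fucosyltransferase of Lewis X, averaged 46.9 ± 9.12 CPM in tumours and 49.2 ± 21.6 CPM in WT intestine (edgeR adjusted p = 0.885). Fut11 was higher in every tumour (13.9 ± 0.353 CPM against 9.99 ± 1.03 CPM in WT intestine, log2 fold change 0.47, edgeR adjusted p = 0.0596, and 0.0222 under library totals), and Fut10 averaged 1.17 ± 0.517 CPM in tumours and 1.41 ± 0.107 CPM in WT intestine. Fut7 and Fut9, which also make Lewis X-type caps, held at most 6 and 8 counts in any library.

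Of 6 sialyltransferases that put sialic acid on galactose in alpha2,3 linkage, 1 rose, 2 fell and 3 did not pass (all genes: 29.7% called). St3gal4, which caps lactosamine chains (chromosome 9, 35046576 to 35119268), was the highest of all members in WT intestine by counts and per length, and stood at 647.7, 1003 and 737.3 CPM in DKO tumours and at 2318, 2352 and 1964 CPM in WT intestine. Each tumour was below each WT library (log2 fold change -1.47, SE 0.228, edgeR adjusted p = 0.00333). A processed transcript on the opposite strand covers 14.1% of its exon bases. St3gal4 made up 94.3% of the class per length in tumours and 98% in WT intestine, and the class sum was 287.9 ± 59.9 CPM per kb in tumours and 771.8 ± 73.9 CPM per kb in WT intestine. St3gal1, which sialylates core 1 chains, stood at 15.1, 25.8 and 24.5 CPM in tumours and at 30.4, 49.2 and 41.1 CPM in WT intestine. The groups did not overlap (log2 fold change -0.89, edgeR adjusted p = 0.0324), but the call ended in 4 of the 6 refits without 1 library (0.0517 to 0.116) and under library totals (0.104). St3gal3, which caps type 1 and lactosamine chains, was at 10.9, 10.6 and 11.6 CPM in tumours and 6.14, 6.36 and 6.49 CPM in WT intestine, a tight and separate pair of groups (log2 fold change 0.80, SE 0.162, edgeR adjusted p = 0.00961).

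St3gal6, with similar acceptors, stood at 60.9, 17.6 and 45.6 CPM in DKO tumours and at 41, 33.5 and 32 CPM in WT intestine, so that tumour 2 was the lowest of the 6 libraries and tumour 1 the highest. St3gal2 and St3gal5, which caps lactosylceramide to form GM3, had log2 fold changes of 0.15 and 0.36 without a call. St6gal1, which caps lactosamine in alpha2,6 linkage, was at 27.7, 12.7 and 20 CPM in tumours and at 16.4, 15.5 and 16.9 CPM in WT intestine, overlapping and not called in edgeR (log2 fold change 0.31, adjusted p = 0.406, unadjusted p of 0.05 or more) or DESeq2.

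The St6galnac enzymes put sialic acid on GalNAc, and of 4 tested, 2 rose, 1 fell and 1 did not pass (all genes: 29.7% called). St6galnac6, known for gangliosides and for disialyl Lewis a in human colon (chromosome 2, 32599709 to 32620806), stood at 29.7, 77 and 46 CPM in DKO tumours and at 6.04, 4.32 and 4.09 CPM in WT intestine. All tumours were far above WT intestine (log2 fold change 3.41, SE 0.371, edgeR adjusted p = 0.000814, 10.6-fold). St6galnac4, its same-strand neighbour with 10 bases between the annotated genes, was at 5.12, 6.30 and 5.48 CPM in tumours and 3.59, 2.83 and 3.44 CPM in WT intestine. That rise (log2 fold change 0.78, edgeR adjusted p = 0.0305) ended in 4 of the 6 refits without 1 library (0.0706 to 0.117). St6galnac2, which sialylates O-linked core GalNAc, was at 54.4, 27.4 and 24.6 CPM in tumours and 63.8, 72.8 and 70 CPM in WT intestine. Tumour 1 came near WT intestine, and the fall (log2 fold change -0.96, edgeR adjusted p = 0.0404) ended without any 1 library other than tumour 1 (0.0666 to 0.13).

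Per length, St6galnac2 was the highest of its class in WT intestine (11.9 CPM per kb, with 6.13 in tumours) and St6galnac6 in DKO tumours (10.6 CPM per kb, with 1.00 in WT intestine). St6galnac6 over St6galnac2 was 0.656, 3.38 and 2.25 in tumours 1 to 3 and 0.114, 0.0713 and 0.0702 in WT intestine, so St6galnac2 remained the higher of the pair in tumour 1. St6galnac3, of disialylated core 1 chains, averaged 1.58 ± 0.541 CPM in tumours and 1.13 ± 0.106 CPM in WT intestine (edgeR adjusted p = 0.313). St6galnac1, which makes sialyl Tn, held at most 9 counts in any library and was not tested, and St6galnac5, of gangliosides, averaged 0.341 CPM in tumours and 0.0577 CPM in WT intestine below the filter.

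The St8sia enzymes join sialic acids to each other. Of 3 tested, 1 rose, 1 fell and 1 did not pass (all genes: 29.7% called). St8sia6, which makes disialic acid caps on O-linked chains (chromosome 2, 13651021 to 13794064), stood at 23.6, 5.43 and 21 CPM in DKO tumours and at 0.661, 1.57 and 1.75 CPM in WT intestine. Tumour 2 was the lowest tumour and above every WT library. The log2 fold change was 3.61 (SE 0.602, edgeR adjusted p = 0.0045), the largest among the members tested. Per length, St8sia6 over St8sia4 was 8.46, 3.86 and 12.8 in tumours and 0.232, 0.359 and 0.426 in WT intestine. St8sia4, a polysialic acid synthase of lymphoid, myeloid and neural cells, was at 7.32, 3.69 and 4.29 CPM in tumours and 7.46, 11.5 and 10.8 CPM in WT intestine. Tumour 1 nearly met WT library 1, and the call (log2 fold change -0.95, edgeR adjusted p = 0.0474) ended in 4 of the 6 refits without 1 library (0.126 to 0.159), under library totals (0.137) and without the filter (0.0503). T cell markers summed to 17.6 to 37.9 CPM in tumours and 35.5 to 79.8 CPM in WT intestine (5 genes, Cd3e fell and Cd4 rose). Myeloid markers summed to 95.1 to 119.9 CPM in tumours and 99.2 to 127.5 CPM in WT intestine. Of these, 4 of 7 rose (S100a8, S100a9, Csf3r and Cd68), Ptprc was lower in every tumour without a call, and Csf1r and Itgam overlapped. S100a8 and S100a9 reached the filter through the tumours alone, so no fall could be called. Neuron and glia markers summed to 14.5 to 25.2 CPM in tumours and 12.9 to 18 CPM in WT intestine (7 genes, of which S100b rose). The part of these marker lists in the St8sia4 value was not tested. St8sia1, the GD3 synthase, averaged 0.545 ± 0.156 CPM in tumours and 0.858 ± 0.44 CPM in WT intestine (edgeR adjusted p = 0.314).

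**Figure D3:**
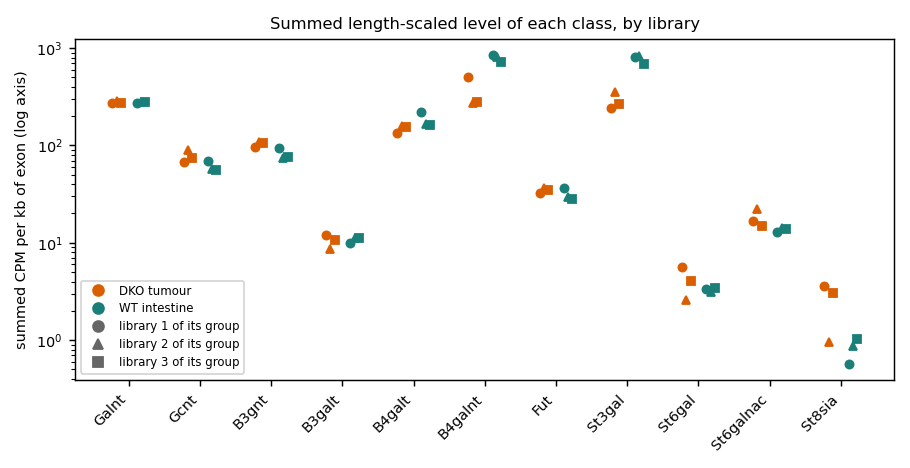
Summed level of each class in CPM per kb of exon (log axis) in each library, with DKO tumours left of WT intestine. The St3gal sums of 239.7 to 354.9 in tumours lie below the 686.8 to 820.7 of WT intestine, the B4galnt sums likewise, and the Galnt sums of the groups overlap at 269.8 to 289.2 in tumours and 273.6 to 280.2 in WT intestine.

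**Figure D4:**
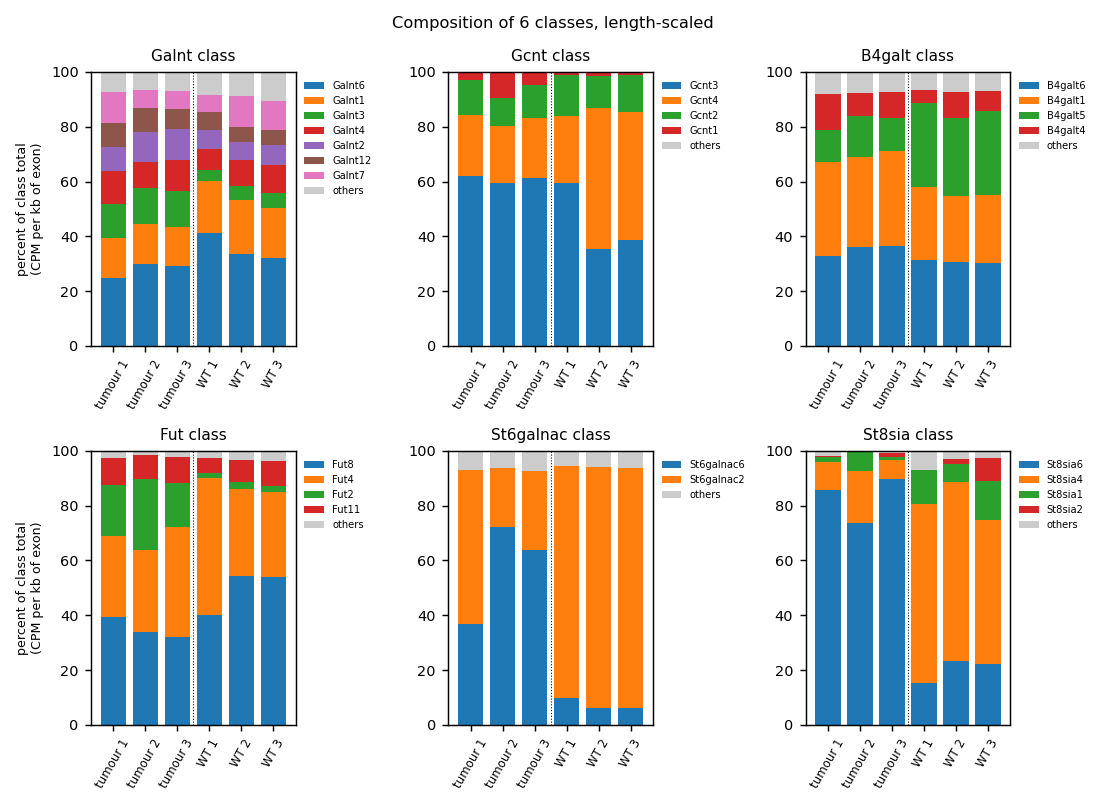
Makeup of 6 classes as percent of the class total in CPM per kb of exon, with DKO tumours 1 to 3 left of WT libraries 1 to 3, and members under 8% in every library pooled as others. St8sia6 makes up 73.5% to 89.6% of its class in tumours and 15.2% to 23.4% in WT intestine, and St6galnac6 36.9% to 72.3% in tumours and 6.15% to 9.64% in WT intestine.

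Of the 18 members below the filter, 14 had counts, none above 16 in a library. Galnt9 and B3gnt4 had 0 counts in DKO tumours and 1 in WT intestine, and St6gal2 and St8sia5 had 1 count in tumours and 0 in WT intestine. A count of 0 over a group allows up to 0.0663 CPM in tumours and 0.0774 CPM in WT intestine (3 counts over the 3 libraries, counting error only). B3galt1, B3galt2, Galnt13, Galnt16, St8sia2 and St8sia3 all averaged between 0.0422 and 0.545 CPM in each group.

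Other genes of the pathway were taken from 7 lists, and of 51 tested (60 in the lists) 14 rose, 7 fell and 30 did not pass, with a median log2 fold change of 0.05. The rises were 27.5% of those tested, against 15.9% of all genes, and the falls 13.7%, against 13.8%. The lists were chosen with earlier results of these data known, so these shares cannot show an excess of rises. Core 1 synthesis did not pass: C1galt1, the core 1 enzyme, averaged 76 ± 9.43 CPM in DKO tumours and 47.4 ± 16.3 CPM in WT intestine (edgeR adjusted p = 0.082), and its chaperone C1galt1c1 55.9 ± 8.62 CPM in tumours and 64 ± 3.31 CPM in WT intestine. Of these 2 genes 1 had an unadjusted p under 0.05 in edgeR, and DESeq2 called 0. Of 6 tested glycan sulfotransferases 3 rose, 1 fell and 2 did not pass (all genes: 29.7% called). Chst4, which puts sulfate on GlcNAc of mucins and of L-selectin ligands, stood at 60.5 ± 6.5 CPM in tumours and 17.4 ± 1.68 CPM in WT intestine (log2 fold change 1.79, SE 0.147, edgeR adjusted p = 0.000283). Chst2, with the same acceptor, and Chst1, of keratan sulfate, rose by 1.07 and 1.59 on the log2 scale, and Chst8, which sulfates GalNAc, fell by 1.41. Each of these last 3 calls ended in at least 2 of the refits without 1 library, and that of Chst8 also under library totals (edgeR adjusted p = 0.0795) and without the filter (0.0551).

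Of 19 tested genes of sugar nucleotide synthesis 5 rose, 2 fell and 12 did not pass (36.8% called, against 29.7% of all genes). Gmds, which starts GDP-fucose synthesis from GDP-mannose, averaged 338 ± 2.04 CPM in DKO tumours and 185.7 ± 14 CPM in WT intestine (log2 fold change 0.86, edgeR adjusted p = 0.00357). Tsta3, the next enzyme of that route, did not pass (log2 fold change -0.21), nor did Fpgt (0.11) and Fuk (0.56) of fucose salvage. Cmas, which activates sialic acid, averaged 255.2 ± 21.6 CPM in tumours and 137.7 ± 22.3 CPM in WT intestine (0.89, edgeR adjusted p = 0.00629). Gne, which starts sialic acid synthesis, did not pass (-0.03), and Nanp was below the filter. Of 4 Golgi transporters of sugar nucleotides 2 rose and 2, Slc35a2 and Slc35a3, did not pass (all genes: 15.9% rose). Slc35c1, of GDP-fucose, averaged 202 ± 43.8 CPM in tumours and 103.1 ± 3.87 CPM in WT intestine (0.97, edgeR adjusted p = 0.00682), and Slc35a1, of CMP-sialic acid, 41.2 ± 4.78 CPM in tumours and 23.3 ± 3.04 CPM in WT intestine (0.82, edgeR adjusted p = 0.00757). Gfpt2, an entry enzyme of hexosamine synthesis, averaged 1.95 ± 0.0624 CPM in tumours and 0.403 ± 0.104 CPM in WT intestine (2.22, edgeR adjusted p = 0.00299). It reached the minimum count through the tumours alone, so no fall could be called. Gnpnat1, of the same route, averaged 36.9 ± 4.59 CPM in tumours and 21.1 ± 5.03 CPM in WT intestine (0.80, edgeR adjusted p = 0.0208). The remaining calls, named after their values were seen, were a rise of Nans (0.54) and falls of Gfpt1 (-0.67) and Pgm3 (-0.57), so the hexosamine genes moved both ways.

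Of 7 tested genes of N-glycan branching, 3 fell, 1 rose and 3 did not pass, where 13.8% of all genes fell and 15.9% rose. Mgat3, which adds the bisecting GlcNAc, stood at 81.6 ± 9.69 CPM in DKO tumours and 176.7 ± 10.8 CPM in WT intestine (log2 fold change -1.11, edgeR adjusted p = 0.00137). Mgat1, the first enzyme of complex chains, averaged 65.6 ± 1.86 CPM in tumours and 107.3 ± 14.1 CPM in WT intestine (-0.71, edgeR adjusted p = 0.00728). Mgat4a and Mgat4b make the same branch, and Mgat4a fell (440.5 ± 46.7 CPM in tumours, 794.2 ± 132.3 CPM in WT intestine, -0.85) while Mgat4b rose (183.5 ± 49.4 CPM in tumours, 94 ± 12.8 CPM in WT intestine, 0.97). Of 6 other terminal transferases 2 rose, Ggta1 of the alpha-galactose cap (1.11) and A4galt of globotriaosylceramide (0.93). Among 7 genes that remove or modify sialic acid and fucose, Siae, which takes acetyl groups off sialic acid, fell (26.1 ± 2.83 CPM in tumours and 72.2 ± 3.44 CPM in WT intestine, log2 fold change -1.47, edgeR adjusted p = 0.000419), and Neu1, a lysosomal sialidase, rose (118.4 ± 39.6 CPM in tumours and 53.8 ± 6.22 CPM in WT intestine, 1.14, edgeR adjusted p = 0.0123). Mgat4a, Mgat4b, A4galt and Gnpnat1 lost the call in 2 or 3 of the refits without 1 library and Neu1 in 1, and Mgat4a also under library totals (edgeR adjusted p = 0.0606).

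**Figure D5:**
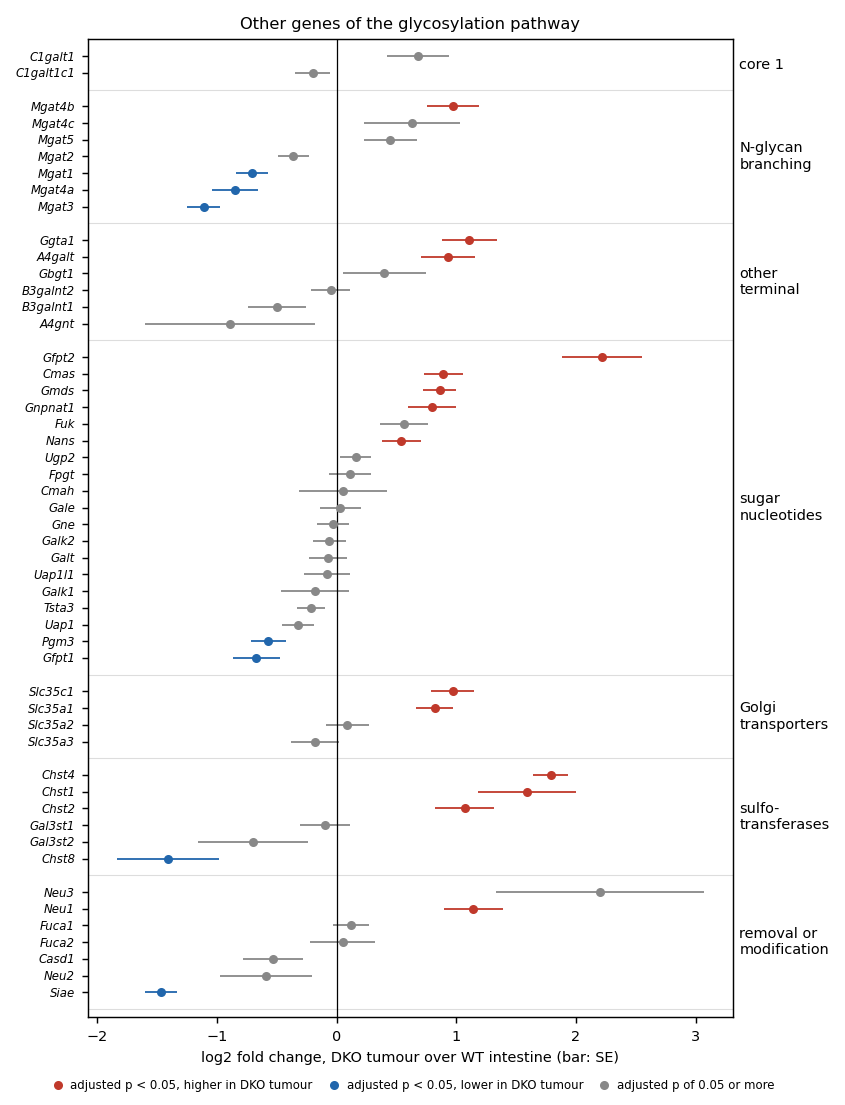
Log2 fold change of DKO tumour over WT intestine with its standard error for the 51 tested genes of 7 further lists of the glycosylation pathway, colored as for the members. The values run from -1.47 (Siae) to 2.22 (Gfpt2, which reached the minimum count through the tumours alone), and 30 genes did not pass.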

How the data were processed

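Polyadenylated RNA was made into libraries with a directional kit and read single-end, per the labels' protocols. The authors deposited raw counts, listed by gene symbol. STAR, DESeq2 and mm10 are named in the submitters' processing notes without versions. Which read counter, annotation and strand setting were used is not given in the sources. The sheet title names normal DKO tissue and its column headers the tumours, and the headers were followed.

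Of 23420 rows, 27 carried a spreadsheet date and were set aside (0.218% to 0.241% of counts). Genes with at least 10 counts in 3 libraries (13866) were fitted with edgeR 4.0.16 in R 4.3.3 (TMM, quasi-likelihood test, Benjamini-Hochberg adjusted p under 0.05, 2 groups). CPM are on the TMM scale, shown as mean ± SD over 3 libraries. A standard error (SE) is the log2 fold change over the square root of F. The labels number no animals, so p-values measure the spread between these samples. Exon lengths and coordinates come from GENCODE M21 (77 members by symbol, 1 by synonym), promoters from RefSeq. The labels name no molecular identifiers, so limits from counts cover counting error only.

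Named were all called members, the highest per length of each class, members at 0 in 1 group and up to 4 called genes of each list. Members and lists were chosen with earlier results of these data known. The script was tested on simulated data. Alternatives were DESeq2 1.42.0, its size factors, library totals, no filter, 50 counts, a replicate block and leaving out each library.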

Additional observations from a re-analysis of the deposited data

How the results depend on the processing

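No called member changed sign under any alternative run. Of the 11 members that rose, 7 (Fut2, St6galnac6, St8sia6, Gcnt1, Galnt3, B3gnt7 and St3gal3) were called under every alternative, and of the 7 that fell, B4galt5 and St3gal4 were. The number that rose was 7 to 12, and the number that fell 2 to 11, when 1 library was left out, and the lowest numbers came without WT library 2 (7 and 2), tumour 2 (7 and 5) and tumour 3 (8 and 2). Library totals gave 3 falls, losing B4galnt1, St3gal1, St6galnac2 and St8sia4. The rises numbered 11, 14, 11, 11 and 12 and the falls 9, 3, 6, 7 and 10 with DESeq2 size factors, library totals, no filter, 50 counts and the DESeq2 test. Of the 42 members without a call, 16 turned in sign under an alternative. With the replicate block 8 members rose and 5 fell, and Chst8 was not called (edgeR adjusted p = 0.0772). The deviations of same-numbered libraries correlated at 0.0152, 0.0104 and -0.0304. No pairing by number was seen, but these values cannot show that the samples were unpaired, and the labels number no animals. All genes tested without 1 library numbered 13510 to 13745, with 13.7% to 31.6% called. Depth limits the 18 untested members, which held at most 16 counts in any library.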
